A study of Mus musculus with 12 samples.

Results

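The transcription factor gene Myc and 40 genes that act in ribosome biogenesis or polyamine synthesis were followed across 12 mouse bone marrow libraries. These 41 genes were chosen by symbol, with earlier results of these data known. All 41 were present among the 24444 gene symbols of each of the 2 deposited tables. The marrow came from C57BL/6 mice and was profiled in bulk by sequencing of stranded mRNA libraries. The design asks what loss of Hopx, a gene for a small homeodomain protein, does to marrow gene expression without and with overexpression of MN1, a transcriptional coactivator whose overexpression drives myeloid leukaemia in mice.

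Each of the 4 groups held 3 libraries. MN1_KO is marrow of Hopx-knockout mice with MN1 overexpression, labelled 16 weeks (replicates 5, 7 and 8). MN1_WT is marrow of Hopx wild-type mice with MN1 overexpression, also labelled 16 weeks (replicates 2, 3 and 4). The group aged_KO is marrow of Hopx-knockout mice without MN1, called old and labelled 18 weeks (replicates 3, 9 and 10). The group aged_WT is marrow of Hopx wild-type mice without MN1, with the same age label (replicates 1, 6 and 7). Values of single libraries are listed below in this order of replicates. The labels do not give how MN1 was introduced, which species' MN1 was used, or whether each library came from a separate mouse, so the p-values measure only the spread between these libraries. MN1, labelled age and deposited table change together, so their parts in any difference between MN1 and aged marrow cannot be told apart.

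Myc is a transcription factor that binds DNA as a dimer with Max and raises the transcription of genes for cell growth, among them many of the ribosome assembly line. Ribosomes are built in the nucleolus, where RNA polymerase I transcribes the ribosomal RNA precursor, small nucleolar ribonucleoproteins (snoRNPs) modify it, and assembly factors cut and fold it into the small and large subunits. Early progenitors and leukaemic cells of the marrow are known for high ribosome production, while neutrophils lose most of it as they mature.

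Library totals were 20798116 to 24312250 counts in MN1_KO, 24084821 to 25299033 in MN1_WT, 16544407 to 28409046 in aged_KO and 18579131 to 21504947 in aged_WT. Ptprc, the pan-leucocyte surface phosphatase, was at 434 to 1149 CPM (expected counts scaled to the library total) in the 12 libraries. Hopx itself was at 2.92 to 3.51 CPM in MN1_KO against 14.1 to 27.9 CPM in MN1_WT, and at 0, 0 and 0.121 CPM in aged_KO against 14.2 to 33.6 CPM in aged_WT. Mn1 was at 47.3, 46.3 and 22.1 CPM in MN1_KO and at 0.395, 36.4 and 0.160 CPM in MN1_WT, against 0.0704 to 1.18 CPM in the 6 aged libraries. The libraries labelled MN1_WT 2 and MN1_WT 4 were thus at the Mn1 level of marrow without MN1, and the counts of called members, the Myc values and the called genes that rest on MN1_WT are also given without them.

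Across the 41 genes, the level per transcript length was highest for Npm1, with a median of 725 TPM (a level scaled by transcript length and library) over the 12 libraries, followed by Fbl at 172 TPM, Ncl at 109 TPM and Nop10 at 101 TPM. It was lowest for Noc3l at 5.91 TPM and Utp20 at 6.80 TPM, and Myc ranked 14 with a median of 44.3 TPM. All 41 genes passed the filter on low counts in all comparisons. The genes lie on 17 chromosomes. Expected counts were fractional in 8 of the 41 genes and in 37 of 492 values, most often for Polr1b (12 libraries) and Dkc1 (11 libraries). Of the 41, 17 overlap a gene on the opposite strand, and whether the counting used strand is not given in the sources used here.

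The 40 genes without Myc summed to 6308, 4709 and 3798 CPM in MN1_KO and to 5348, 5447 and 4002 CPM in MN1_WT, against 2821, 2438 and 3193 CPM in aged_KO and 3185, 3207 and 3780 CPM in aged_WT. Every MN1 library was thus above every aged library in this sum, most narrowly for MN1_KO 8 beside aged_WT 7. MN1_WT 2, one of the libraries without a raised Mn1 level, was close to MN1_WT 3, which had one. MN1_KO 5 held the highest CPM of all 12 libraries for 27 of the 41 genes, and aged_KO 9, the library with the largest total, held the lowest for 37. Within their groups, MN1_KO 8 was lowest for 29 genes and MN1_WT 4 for 38. In bulk marrow, fewer cells of a type and less RNA per cell cannot be told apart.

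**Figure D1:**
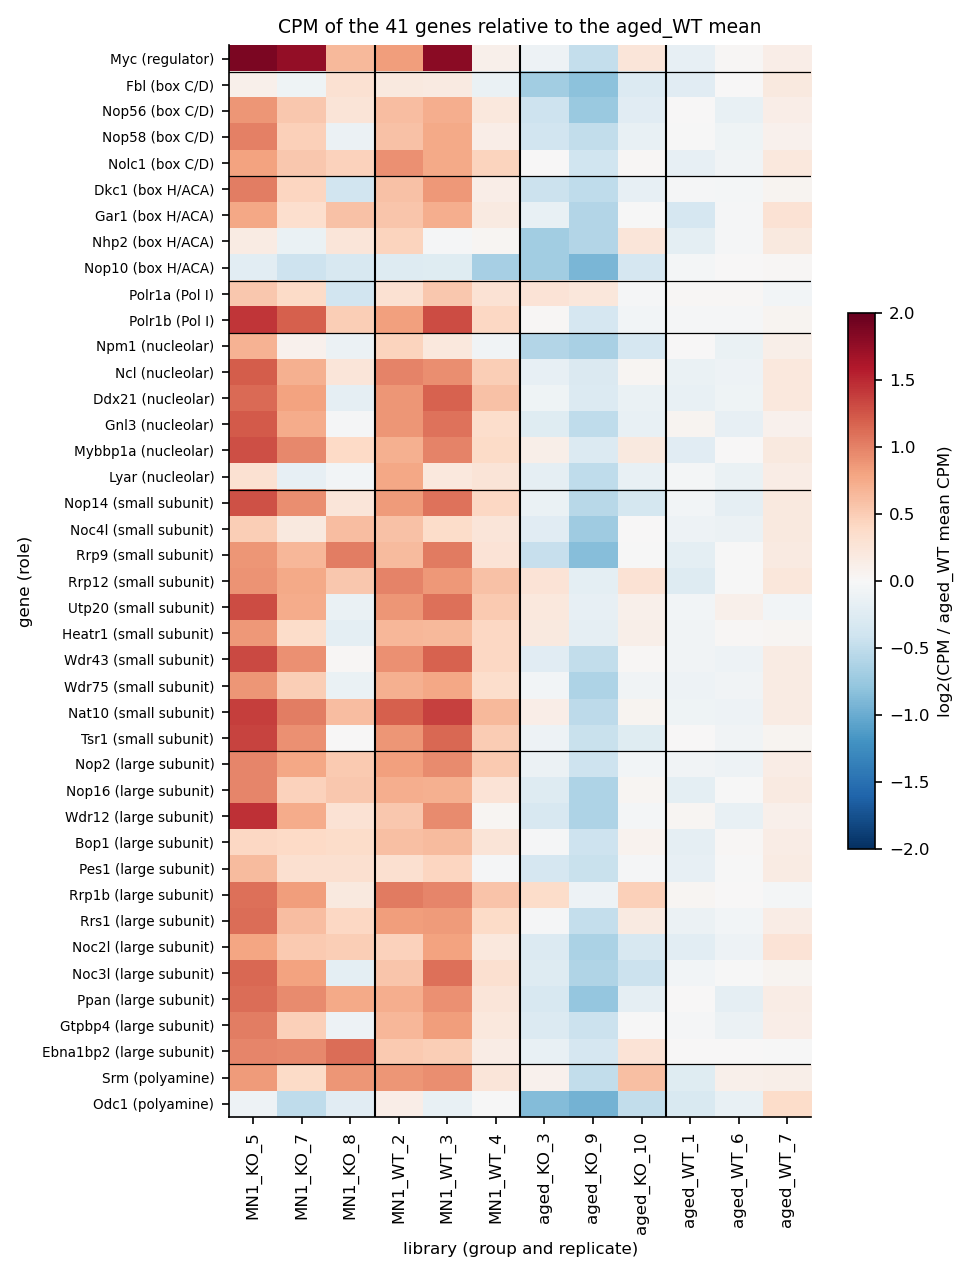
CPM of the 41 genes (rows, ordered by role) in each of the 12 libraries (columns), as the log2 ratio to the gene's mean in aged_WT (colour scale). Most rows are red in the MN1 libraries and palest in MN1_KO 8 and MN1_WT 4, and aged_KO 9 is the bluest column; Nop10 and Odc1 are not raised in the MN1 columns.

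Fold changes below are scaled between libraries by TMM (edgeR's trimmed mean of M values) and therefore differ from plain ratios of CPM. The TMM factors were 0.997 to 1.23 in MN1_KO, 1.01 to 1.19 in MN1_WT, 0.820 to 0.912 in aged_KO and 0.947 to 0.996 in aged_WT when all 12 libraries were scaled together. The scaling lowered the folds of MN1_KO over aged_KO: the median log2 fold change over all genes tested was 0.08 with TMM and 0.46 with library totals alone. A gene is called where its adjusted p (edgeR's quasi-likelihood test, Benjamini-Hochberg over all genes tested) is below 0.05.

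Myc, on chromosome 15 (GRCm38.p6, chr15:61985341-61990361, plus strand), was at 228, 210 and 97.8 CPM in MN1_KO and at 110, 216 and 66.3 CPM in MN1_WT, against 58.0, 44.7 and 73.2 CPM in aged_KO and 55.3, 63.0 and 67.9 CPM in aged_WT. The 3 MN1_KO libraries were all above the 3 aged_KO libraries, MN1_WT 4 was inside the range of aged_WT, and the aged groups overlapped. Myc rose in MN1_KO relative to aged_KO, with a log2 fold change of 1.21 ± 0.35 (SE, edgeR adjusted p = 0.0225), or 2.31-fold. Leaving out 1 library moved this between 1.05 and 1.45, and the call was lost without aged_KO 3 (adjusted p = 0.0703), aged_KO 9 (0.0869), MN1_KO 5 (0.0679) or MN1_KO 7 (0.0698) in the same edgeR fit. In MN1_WT relative to aged_WT the log2 fold change was 0.88 ± 0.35 (edgeR adjusted p = 0.159), and with MN1_WT 3 as the only MN1_WT library it was 1.499 ± 0.32 (edgeR adjusted p = 0.0156), where that lone library is assumed to vary like the other groups. Between knockout and wild type Myc did not pass the edgeR test, at 0.44 ± 0.41 in MN1 marrow (adjusted p = 0.804) and at 0.09 ± 0.15 in aged marrow (adjusted p = 0.686). The difference between those knockout effects was 0.33 ± 0.49 (edgeR adjusted p = 0.717).

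**Figure D2:**
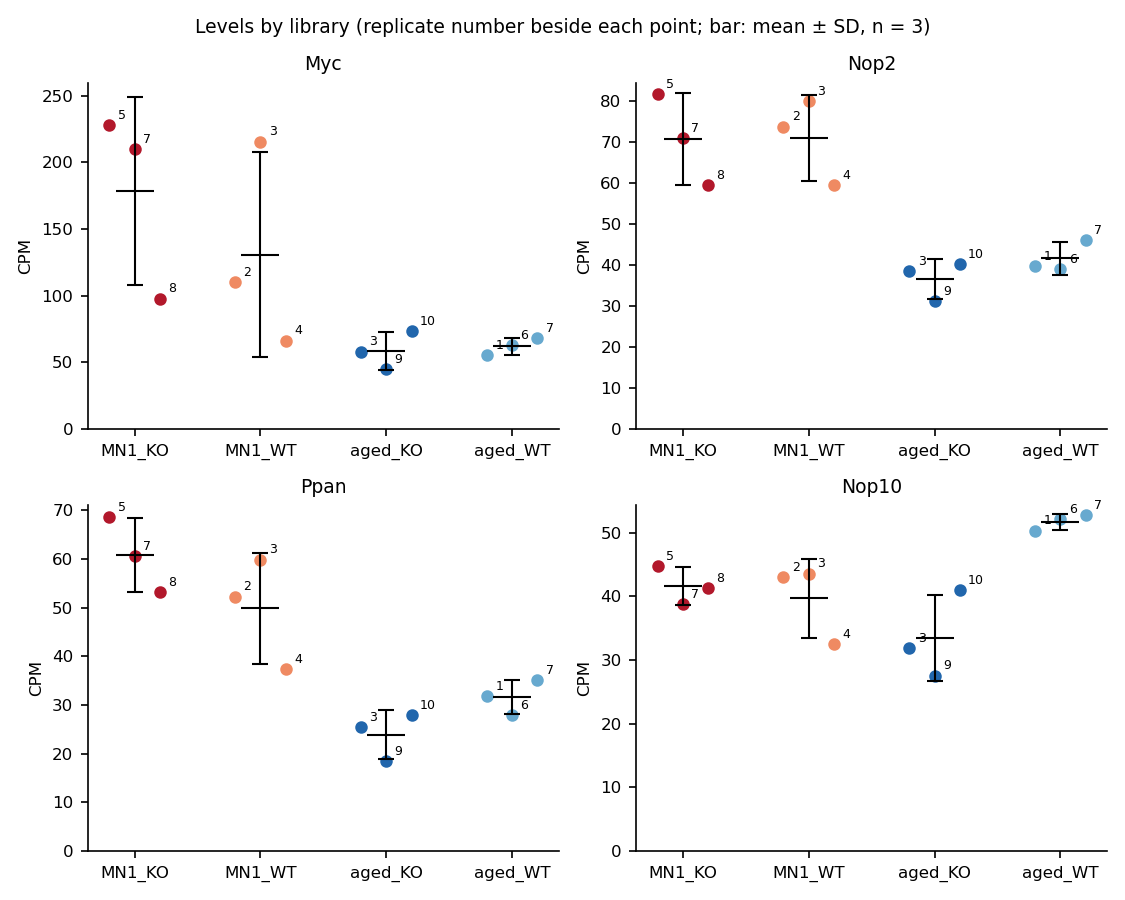
CPM of Myc, Nop2, Ppan and Nop10 in each library (points, with replicate numbers), by group, with the mean and SD over 3 libraries (bars). Myc spreads widely within both MN1 groups, with MN1_WT 4 at 66.3 CPM beside aged_WT 7 at 67.9 CPM, while Nop2 separates all MN1 from all aged libraries and Nop10 is highest in aged_WT.

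In MN1_KO relative to aged_KO, 17 of the 41 genes rose and 0 fell, which is 41.5% higher, where 21.1% of all 13937 genes tested were called higher and 16.8% lower. The 41 were chosen with earlier results of these data known, which these shares do not allow for. The median log2 fold change of the 41 genes was 0.44, against 0.08 over all genes. In 27 of the 41 genes the 3 MN1_KO libraries lay above the 3 aged_KO libraries in CPM, where 42.1% of all genes did so, and 0 lay below, where 12.5% did. By role, the called genes were Myc, 1 of 4 genes placed in the box C/D role and 0 of 4 box H/ACA proteins. The box C/D role here includes Nolc1, which binds snoRNPs. The other roles had calls for 1 of 2 polymerase subunits, 2 of 6 other nucleolar proteins and 5 of 10 small-subunit factors. Large-subunit factors had 7 of 12 and polyamine enzymes 0 of 2. Without TMM, on library totals alone, 32 of the 41 genes were called higher, beside 38.3% of all genes. Leaving out 1 library gave 5 calls without aged_KO 9, 7 without aged_KO 3, 8 without MN1_KO 5 and 11 without MN1_KO 7. The shares of all genes called in these smaller fits are not given here. Polr1b, Nop14, Nop2, Noc2l and Ppan were called under all 11 alternatives.

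Markers of cell types moved with the same comparison. The 6 progenitor markers summed to 742 to 2878 CPM in MN1_KO against 120 to 136 CPM in aged_KO, with 6 of 6 called higher. The 6 markers of dividing cells summed to 1179 to 1506 CPM against 2235 to 2521 CPM, with 5 of 6 called lower, and the 6 secondary granule genes of neutrophils summed to 9912 to 41169 CPM against 53215 to 56286 CPM, with 3 of 6 called lower. No marker of these lists was at 0 in every library of a group. Their part in the levels of the 41 genes was not tested.

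**Figure D3:**
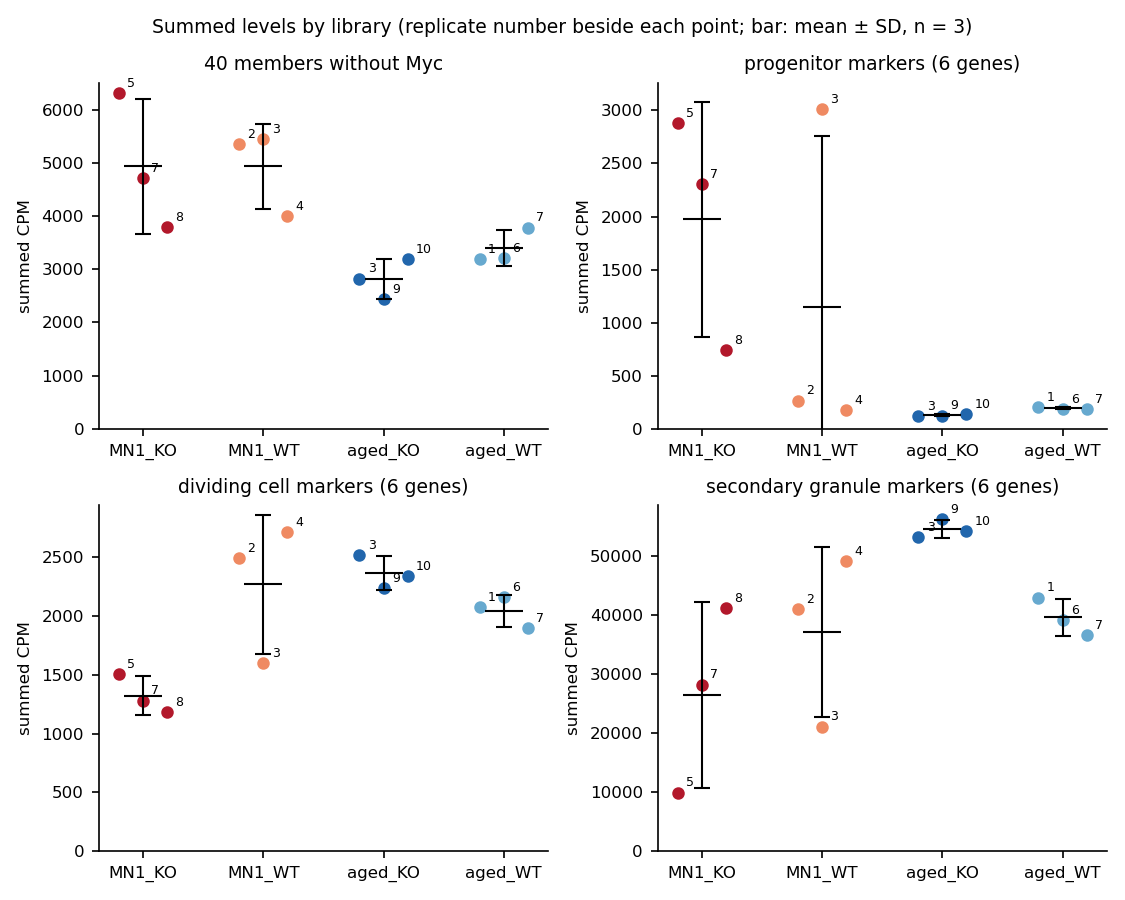
Summed CPM in each library (points, with replicate numbers) of the 40 genes without Myc and of 3 marker lists, by group, with the mean and SD over 3 libraries (bars; the lower end of the MN1_WT bar for progenitor markers falls below 0 and is not drawn). MN1_KO 5 has the highest sum of the 40 genes and the lowest of secondary granule markers; MN1_WT 3 alone carries the progenitor signal of its group, at 3009 CPM.

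In MN1_WT relative to aged_WT, 3 of the 41 genes rose and 0 fell, where 1% of all 13937 genes tested were called higher and 2.58% lower, 3.58% in all. The 3 were Nop2, Nat10 and Rrp12. The median log2 fold change of the 41 genes was 0.47 against 0.06 over all genes. Of the 41 fold changes 38 were positive, as were 7606 over all 13937 genes tested. An unadjusted edgeR p below 0.05 was found for 25 of the 41 and for 3398 of the 13937. In 31 genes the MN1_WT libraries were all above the aged_WT libraries in CPM, where 27.2% of all genes were, and in 1 gene, Nop10, they were all below, where 13.4% of all genes were. DESeq2 called 11 higher and 1 lower. Its share over all genes is not given here, and the edgeR shares above are not a background for these counts. No member was called in edgeR without MN1_WT 2 or without any 1 of the aged_WT libraries 1, 6 and 7, 1 was without MN1_WT 3, and 4 were (Myc, Polr1b, Nat10 and Nop2, but not Rrp12, at 0.58 ± 0.21 with an edgeR adjusted p of 0.0889) with MN1_WT 3 as the only MN1_WT library. Beside this, progenitor markers summed to 175, 266 and 3009 CPM in MN1_WT libraries 4, 2 and 3 against 187 to 205 CPM in aged_WT, and B lineage markers to 48.2 to 384 CPM against 431 to 912 CPM. Of these markers, 0 of 6 progenitor ones were called, and 1 of 10 B lineage ones was called lower. Called lower were also 1 of 5 T and NK and 3 of 6 megakaryocyte and platelet markers. Their part was not tested.

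**Figure D4:**
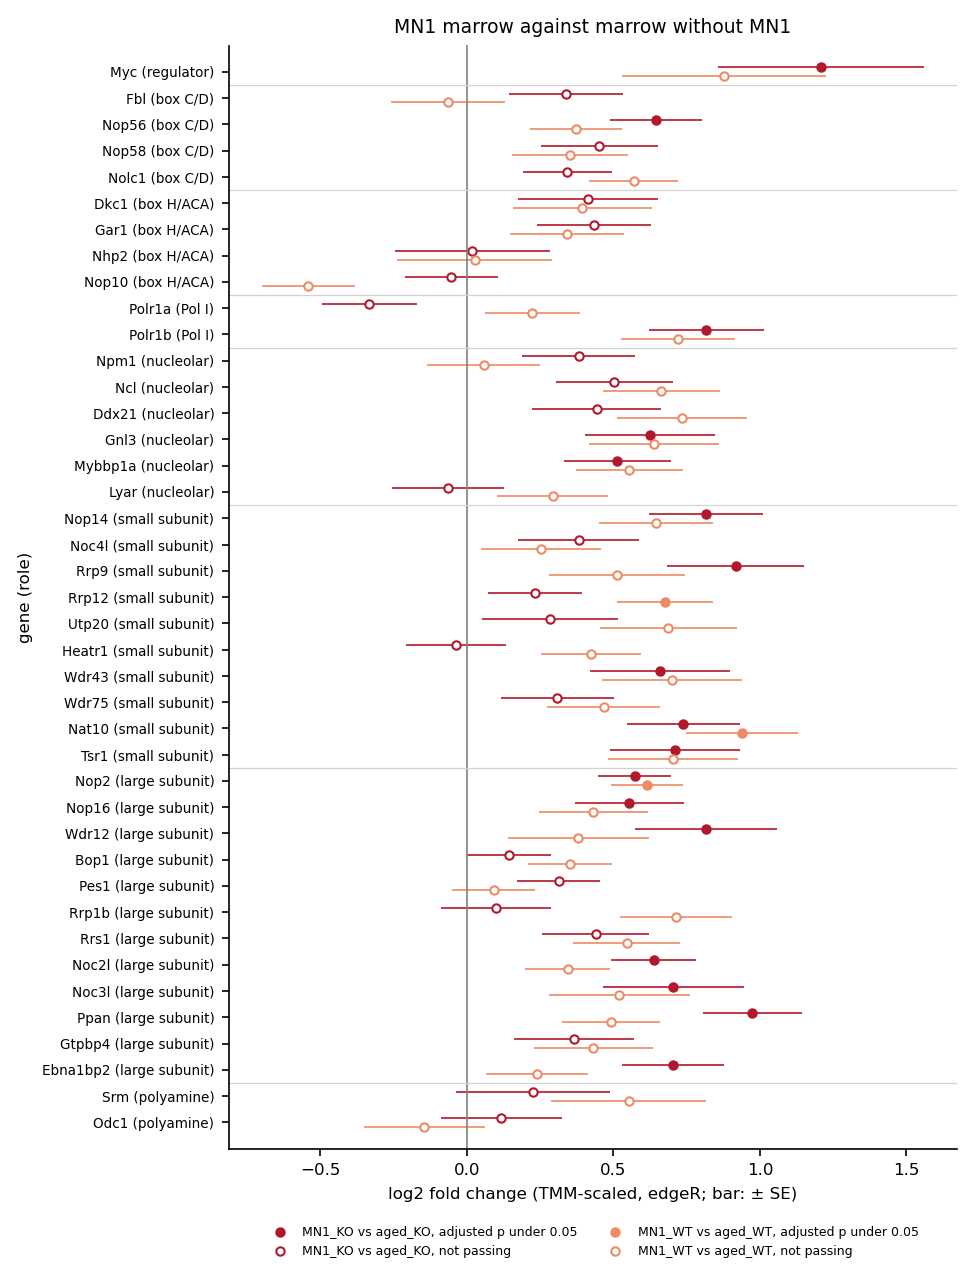
Log2 fold change (x axis, TMM-scaled, with SE) of each of the 41 genes (rows, by role) in MN1_KO against aged_KO (dark red) and in MN1_WT against aged_WT (orange); filled points have an edgeR adjusted p below 0.05. Points lie right of 0 in both comparisons for 35 of the 41 genes, and 17 dark red and 3 orange points are filled.

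The box C/D snoRNPs methylate ribosomal RNA under the guidance of small nucleolar RNAs (snoRNAs). Fbl, their methyltransferase, was at 133, 116 and 153 CPM in MN1_KO and 141, 141 and 113 CPM in MN1_WT, against 76.4, 69.6 and 102 CPM in aged_KO and 105, 124 and 141 CPM in aged_WT. The aged_KO libraries were the lowest of the 12, and the other groups overlapped. Its log2 fold change in MN1_KO relative to aged_KO was 0.34 ± 0.19 (edgeR adjusted p = 0.181), and in aged_KO relative to aged_WT it was -0.40 ± 0.15 (0.0727). Nop56, a core scaffold protein, was at 197, 155 and 127 CPM in MN1_KO and 163, 176 and 124 CPM in MN1_WT, against 80.4, 63.5 and 91.4 CPM in aged_KO and 107, 96.3 and 117 CPM in aged_WT. All MN1 libraries were above all aged libraries, and aged_KO lay below aged_WT. Nop56 rose in MN1_KO relative to aged_KO by 0.64 ± 0.16 (log2, edgeR adjusted p = 0.0115). Its partner scaffold Nop58 was at 210, 144 and 95.9 CPM in MN1_KO against 80.4, 74.2 and 94.2 CPM in aged_KO, and 157, 176 and 115 CPM in MN1_WT against 104, 98.8 and 111 CPM in aged_WT. The MN1 libraries stood above those of the same genotype without MN1 in both genotypes, by the narrowest margin for MN1_KO 8. Nop58 did not pass in MN1_KO relative to aged_KO (0.45 ± 0.20, edgeR adjusted p = 0.0906). Nolc1, a nucleolar phosphoprotein that binds snoRNPs, did not pass in any comparison, with 0.34 ± 0.15 in MN1_KO relative to aged_KO and 0.57 ± 0.15 in MN1_WT relative to aged_WT (edgeR adjusted p = 0.0927 and 0.0632).

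Of the 41 genes, 7 (17.1%) hold a snoRNA gene within an intron in the GENCODE vM21 annotation of GRCm38, as do 1.00% of 21951 protein-coding genes: Nop56, Nop58, Dkc1, Ncl, Wdr43, Tsr1 and Odc1, with 12 snoRNA genes in all. The following 4 are those with a Snord symbol among the 6 that carry both short elements of a box C/D guide, box C (TGATGA within the first 20 bases) and box D (CTGA within the last 20), in capitals. Both elements were found in these 6 of the 12 snoRNAs and in 20.7% of 1483 snoRNA transcripts of the annotation. The snoRNAs themselves were not measured in these mRNA libraries.
Snord110 in Nop56, chr2:130275506-130275573, plus strand: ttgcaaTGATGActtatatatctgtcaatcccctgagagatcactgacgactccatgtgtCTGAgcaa
Snord11 in Nop58, chr1:59704790-59704873, plus strand: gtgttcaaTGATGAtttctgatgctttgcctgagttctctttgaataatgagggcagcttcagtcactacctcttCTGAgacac
Snord82 in Ncl, chr1:86356261-86356330, minus strand: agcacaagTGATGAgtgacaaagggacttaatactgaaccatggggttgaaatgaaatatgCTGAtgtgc
Snord92 in Wdr43, chr17:71631281-71631365, plus strand: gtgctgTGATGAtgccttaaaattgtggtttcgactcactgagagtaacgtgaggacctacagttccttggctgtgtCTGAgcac

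The box H/ACA snoRNPs convert uridine of ribosomal RNA to pseudouridine. Dkc1, the pseudouridine synthase, was at 155, 102 and 58.7 CPM in MN1_KO and 115, 140 and 84.0 CPM in MN1_WT, against 56.7, 53.8 and 68.0 CPM in aged_KO and 75.3, 74.3 and 79.4 CPM in aged_WT. MN1_KO 8 was inside the aged_KO range, and the fold change did not pass (0.41 ± 0.24, edgeR adjusted p = 0.182). Gar1, a core protein, was at 39.1, 28.9 and 34.5 CPM in MN1_KO and 33.6, 38.0 and 26.0 CPM in MN1_WT, against 20.7, 15.3 and 23.0 CPM in aged_KO and 18.3, 22.5 and 28.1 CPM in aged_WT. The knockout groups did not overlap, the wild-type groups did, and the fold change in MN1_KO relative to aged_KO was 0.44 ± 0.19 (edgeR adjusted p = 0.0957). Nhp2, another core protein, was within 32.9 to 72.0 CPM in the 12 libraries, with fold changes of 0.02 ± 0.26 in MN1_KO relative to aged_KO and 0.03 ± 0.26 in MN1_WT relative to aged_WT.

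Nop10, the smallest core protein of the complex, ran differently from most of the 41 genes. It was at 44.7, 38.8 and 41.3 CPM in MN1_KO and 43.0, 43.6 and 32.5 CPM in MN1_WT, against 31.9, 27.6 and 40.9 CPM in aged_KO and 50.3, 52.1 and 52.8 CPM in aged_WT. The 3 aged_WT libraries were the highest of the 12. Nop10 fell in aged_KO relative to aged_WT by 0.45 ± 0.13 on the log2 scale (edgeR adjusted p = 0.0290). In MN1_WT relative to aged_WT its log2 fold change was -0.54 ± 0.16 (edgeR adjusted p = 0.0774), and in MN1_KO relative to aged_KO it was -0.05 ± 0.16 (0.807).

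RNA polymerase I was represented by its 2 large subunits. Polr1a, the catalytic one, was at 107, 95.3 and 56.1 CPM in MN1_KO and 90.7, 107 and 89.8 CPM in MN1_WT, against 89.1, 85.7 and 72.5 CPM in aged_KO and 74.7, 74.9 and 70.7 CPM in aged_WT. The library MN1_KO 8 was the lowest of the 12, and MN1_KO and aged_KO overlapped. Polr1a did not pass in MN1_KO relative to aged_KO, at -0.33 ± 0.16 (edgeR adjusted p = 0.120) with TMM and 0.063 on library totals alone. Polr1b, the partner subunit, was at 67.5, 56.9 and 35.0 CPM in MN1_KO and 43.9, 61.9 and 33.4 CPM in MN1_WT, against 25.5, 19.6 and 23.9 CPM in aged_KO and 24.6, 24.4 and 25.7 CPM in aged_WT. Every MN1 library was above every aged library. Polr1b rose in MN1_KO relative to aged_KO by 0.82 ± 0.20 (log2, edgeR adjusted p = 0.0107), and in MN1_WT relative to aged_WT it was at 0.72 ± 0.20 (0.0650).

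Among the other nucleolar proteins, Npm1, the nucleolar histone chaperone, was at 1060, 697 and 607 CPM in MN1_KO and 897, 759 and 625 CPM in MN1_WT, against 437, 421 and 523 CPM in aged_KO and 662, 597 and 714 CPM in aged_WT. The aged_KO libraries were the lowest 3 of the 12, and the wild-type groups overlapped. Npm1 did not pass in MN1_KO relative to aged_KO (0.38 ± 0.19, edgeR adjusted p = 0.134) or in aged_KO relative to aged_WT (-0.33 ± 0.13, 0.0783). Gnl3 (nucleostemin), a nucleolar GTPase of stem and cancer cells, was at 108, 76.8 and 45.2 CPM in MN1_KO and 84.6, 97.3 and 58.5 CPM in MN1_WT, against 38.7, 32.4 and 41.5 CPM in aged_KO and 47.8, 41.1 and 48.6 CPM in aged_WT. The MN1 libraries were above those of the same genotype without MN1. Gnl3 rose in MN1_KO relative to aged_KO by 0.63 ± 0.22 (log2, edgeR adjusted p = 0.0458). Mybbp1a, a nucleolar protein that binds Myb, was at 312, 249 and 167 CPM in MN1_KO and 209, 253 and 166 CPM in MN1_WT, against 138, 106 and 146 CPM in aged_KO and 108, 128 and 146 CPM in aged_WT. The lowest MN1 library, at 166 CPM, was above the highest aged ones, at 146 CPM. Mybbp1a rose in MN1_KO relative to aged_KO by 0.51 ± 0.18 (log2, edgeR adjusted p = 0.0457), and this call and that of Gnl3 held in 4 of 11 alternatives each. Ncl (nucleolin) at 0.50 ± 0.20, the RNA helicase Ddx21 at 0.44 ± 0.22 and Lyar at -0.06 ± 0.19 did not pass in that comparison.

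The small-subunit factors held 5 of the called genes in MN1_KO relative to aged_KO. Nop14, a protein of the small-subunit processome, was at 66.3, 52.6 and 32.5 CPM in MN1_KO and 49.7, 58.4 and 36.6 CPM in MN1_WT, against 25.1, 18.8 and 21.6 CPM in aged_KO and 26.6, 24.4 and 31.6 CPM in aged_WT. All MN1 libraries were above all aged ones, MN1_KO 8 by the least. Nop14 rose in MN1_KO relative to aged_KO by 0.82 ± 0.20 (log2, edgeR adjusted p = 0.0107). Rrp9, a protein of the snoRNP that guides the early cuts of the precursor, was at 29.7, 25.2 and 32.5 CPM in MN1_KO and 24.9, 32.8 and 19.3 CPM in MN1_WT, against 11.6, 8.84 and 15.8 CPM in aged_KO and 14.0, 15.9 and 18.1 CPM in aged_WT. It is 1 of 6 members whose highest MN1_KO library was replicate 8. Rrp9 rose in MN1_KO relative to aged_KO by 0.92 ± 0.23 (log2, edgeR adjusted p = 0.0139). Nat10, which acetylates small-subunit rRNA, was at 71.8, 56.0 and 42.2 CPM in MN1_KO and 63.2, 71.3 and 43.4 CPM in MN1_WT, against 30.4, 19.3 and 28.5 CPM in aged_KO and 26.0, 25.8 and 31.0 CPM in aged_WT. It rose in both genotypes, by 0.74 ± 0.19 in MN1_KO relative to aged_KO and by 0.94 ± 0.19 in MN1_WT relative to aged_WT (edgeR adjusted p = 0.0148 and 0.0270).

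Rrp12, a factor of late small-subunit maturation and export, was at 37.7, 33.9 and 29.4 CPM in MN1_KO and 40.04, 36.9 and 30.3 CPM in MN1_WT, against 24.2, 17.7 and 24.7 CPM in aged_KO and 16.8, 19.995 and 23.6 CPM in aged_WT. The MN1 and aged libraries did not overlap. It rose in MN1_WT relative to aged_WT (0.68 ± 0.16, edgeR adjusted p = 0.0459) and did not pass in MN1_KO relative to aged_KO (0.23 ± 0.16, 0.264). The processome proteins Utp20 and Heatr1 had no call. Utp20 was at 88.6, 59.9 and 32.9 CPM in MN1_KO and 66.4, 77.4 and 51.5 CPM in MN1_WT, against 41.8, 32.0 and 38.7 CPM in aged_KO and 34.6, 38.5 and 34.8 CPM in aged_WT. Heatr1 was at 110, 77.6 and 52.7 CPM in MN1_KO and 95.4, 94.3 and 80.7 CPM in MN1_WT, against 69.2, 53.0 and 65.3 CPM in aged_KO and 57.8, 61.2 and 62.0 CPM in aged_WT. For both, MN1_KO 8 was not above the highest aged_KO library and the wild-type groups did not overlap. Wdr43, a processome protein tied to transcription of the precursor, and Tsr1, a late assembly factor, rose in MN1_KO relative to aged_KO by 0.66 ± 0.24 and 0.71 ± 0.22 (log2, edgeR adjusted p = 0.0495 and 0.0298), although the CPM of Wdr43 overlapped. The call of Wdr43 held in 4 of 11 alternatives and that of Tsr1 in 6. Noc4l (0.38 ± 0.20) and Wdr75 (0.31 ± 0.19) did not pass.

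Large-subunit factors were the role with the largest number of called genes. Ppan, the Peter Pan homologue needed for large-subunit rRNA processing, was at 68.5, 60.6 and 53.2 CPM in MN1_KO and 52.3, 59.9 and 37.4 CPM in MN1_WT, against 25.4, 18.4 and 27.99 CPM in aged_KO and 31.8, 27.99 and 35.1 CPM in aged_WT. It separated all MN1 from all aged libraries and had the smallest p of the 41 genes in MN1_KO relative to aged_KO, where it rose by 0.97 ± 0.17 (log2, edgeR adjusted p = 0.00314). Nop2, an rRNA cytosine methyltransferase, was at 81.8, 71.0 and 59.5 CPM in MN1_KO and 73.8, 80.0 and 59.5 CPM in MN1_WT, against 38.5, 31.1 and 40.3 CPM in aged_KO and 39.7, 38.9 and 46.1 CPM in aged_WT. Every MN1 library was above every aged one, with no library between 46.1 and 59.5 CPM. Nop2 rose by 0.57 ± 0.12 in MN1_KO relative to aged_KO and by 0.61 ± 0.12 in MN1_WT relative to aged_WT (log2, edgeR adjusted p = 0.00721 and 0.0255).

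Noc3l, a nucleolar partner of pre-large-subunit particles, was at 35.9, 28.6 and 14.2 CPM in MN1_KO and 23.9, 34.9 and 20.3 CPM in MN1_WT, against 13.7, 10.7 and 12.1 CPM in aged_KO and 15.7, 16.2 and 16.9 CPM in aged_WT. MN1_KO 8 was only just above aged_KO 3. Noc3l rose in MN1_KO relative to aged_KO by 0.70 ± 0.24 (log2, edgeR adjusted p = 0.0403), a call held in 5 of 11 alternatives. The other called large-subunit genes of that comparison were Wdr12 (0.82 ± 0.24), Ebna1bp2 (0.70 ± 0.17), Noc2l (0.64 ± 0.15) and Nop16 (0.56 ± 0.19), with edgeR adjusted p between 0.00883 and 0.0374. Wdr12 works in a complex with Bop1 and Pes1, whose fold changes of 0.14 ± 0.14 and 0.31 ± 0.14 did not pass. Rrs1 (0.44 ± 0.18), the GTPase Gtpbp4 (0.37 ± 0.20) and Rrp1b (0.10 ± 0.19) did not pass.

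The polyamine enzymes, direct Myc targets in many cells, had no call between MN1 and aged marrow. Srm, spermidine synthase, was at 79.1, 57.1 and 80.7 CPM in MN1_KO and 81.0, 83.4 and 52.2 CPM in MN1_WT, against 46.8, 31.4 and 66.9 CPM in aged_KO and 37.2, 47.2 and 47.5 CPM in aged_WT. Odc1, ornithine decarboxylase, which starts the pathway, was at 150, 114 and 137 CPM in MN1_KO and 176, 145 and 160 CPM in MN1_WT, against 88.3, 83.6 and 114 CPM in aged_KO and 130, 146 and 208 CPM in aged_WT. MN1_KO and aged_KO overlapped for both genes, MN1_WT and aged_WT for Odc1 alone. Fold changes in MN1_KO relative to aged_KO were 0.23 ± 0.26 for Srm and 0.12 ± 0.21 for Odc1 (edgeR adjusted p = 0.509 and 0.664).

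Promoter windows, from 250 bases before to 50 bases after the start, were found in the RefSeq table (GRCm38.p6) for 34 of the 41 genes and searched on both strands for 2 motifs, which do not overlap each other. The Myc-type E-box CACGTG was in 6 of 34 (17.6%), against 8.09% of 27025 genes in the table. The ETS core CCGGAAG was in 10 of 34 (29.4%), against 9.93%. Called in MN1_KO relative to aged_KO were 4 of the 6 genes with the E-box and 12 of the 28 without it, and 6 of the 10 with the ETS core and 10 of the 24 without it. A match describes the letters only. The E-boxes of Mybbp1a, Pes1, Tsr1, Utp20 and Wdr43 lie downstream of the start. Nop2, called in both genotypes, holds an E-box 60 bases before its start and an ETS core 38 bases before it, and 4 genes with an ETS core upstream that had no call are shown beside it. Capitals mark the motifs, and CTTCCGG is the ETS core on the other strand.
Nop2, chr6:125131793-125131858, plus strand: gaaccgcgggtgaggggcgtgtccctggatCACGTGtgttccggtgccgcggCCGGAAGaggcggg
Gar1, chr3:129831403-129831469, minus strand: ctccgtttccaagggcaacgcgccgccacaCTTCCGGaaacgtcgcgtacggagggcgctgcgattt
Heatr1, chr13:12395329-12395374, plus strand: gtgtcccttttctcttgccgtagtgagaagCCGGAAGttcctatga
Nhp2, chr11:51619720-51619772, plus strand: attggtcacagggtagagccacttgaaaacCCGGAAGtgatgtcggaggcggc
Nolc1, chr19:46075803-46075846, plus strand: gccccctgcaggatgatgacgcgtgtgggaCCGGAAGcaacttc

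Loss of Hopx in aged marrow moved few of the 41 genes. In aged_KO relative to aged_WT, 2 rose, Polr1a and Rrp1b, 2 fell, Nop10 and Odc1, and 37 did not pass, where 15.6% of all 12771 genes tested were called higher and 15.8% lower. The members' 4.88% in each direction is below both. Polr1a rose by 0.35 ± 0.11 and Rrp1b, a nucleolar protein of large-subunit processing, by 0.44 ± 0.13 (log2, edgeR adjusted p = 0.0374 and 0.0341). Rrp1b was at 33.4, 24.3 and 36.1 CPM in aged_KO against 26.5, 26.1 and 25.1 CPM in aged_WT, and both genes overlapped between the groups in CPM. Odc1 fell by 0.58 ± 0.18 (edgeR adjusted p = 0.0376), and neither Odc1 nor Nop10 overlapped. In CPM, 0 of the 41 genes lay wholly higher in aged_KO, where 12.5% of all genes did, and 12 lay wholly lower, where 38.4% did. The median log2 fold change of the 41 genes was -0.06, against -0.02 over all genes.

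These calls depended on scaling and on single libraries. On library totals alone 0 genes were called higher and 8 lower (Fbl, Nop56, Nop58, Dkc1, Nop10, Npm1, Noc3l and Odc1), and the fit of all 12 libraries called 0. TMM factors in the fit of the aged libraries were 0.886 to 0.992 in aged_KO and 1.05 to 1.09 in aged_WT. Leaving them out lowers the fold changes of genes in general, not of the members alone. Leaving out 1 library gave 0 calls without aged_KO 3, aged_WT 6 or aged_WT 7, 1 without aged_KO 9 or aged_WT 1, and 9 without aged_KO 10. The shares of all genes called under these alternatives are not given here. The counts therefore show only how far the members' calls moved. Beside these values, B lineage markers summed to 25.9 to 35.8 CPM in aged_KO against 431 to 912 CPM in aged_WT with 10 of 10 called lower, and secondary granule markers to 53215 to 56286 CPM against 36643 to 42930 CPM with 5 of 6 called higher. The markers of dividing cells summed to 2235 to 2521 CPM against 1895 to 2159 CPM, with 3 of 6 called higher. Progenitor markers summed to 120 to 136 CPM against 187 to 205 CPM, with 3 of 6 called lower. Called lower were also 5 of 8 erythroid, 6 of 6 megakaryocyte and platelet, 4 of 5 T and NK and 2 of 7 monocyte and macrophage markers. Of the primary granule and the mature neutrophil markers, 5 of 6 each were called higher. The part of these cell types in the 4 calls was not tested.

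**Figure D5:**
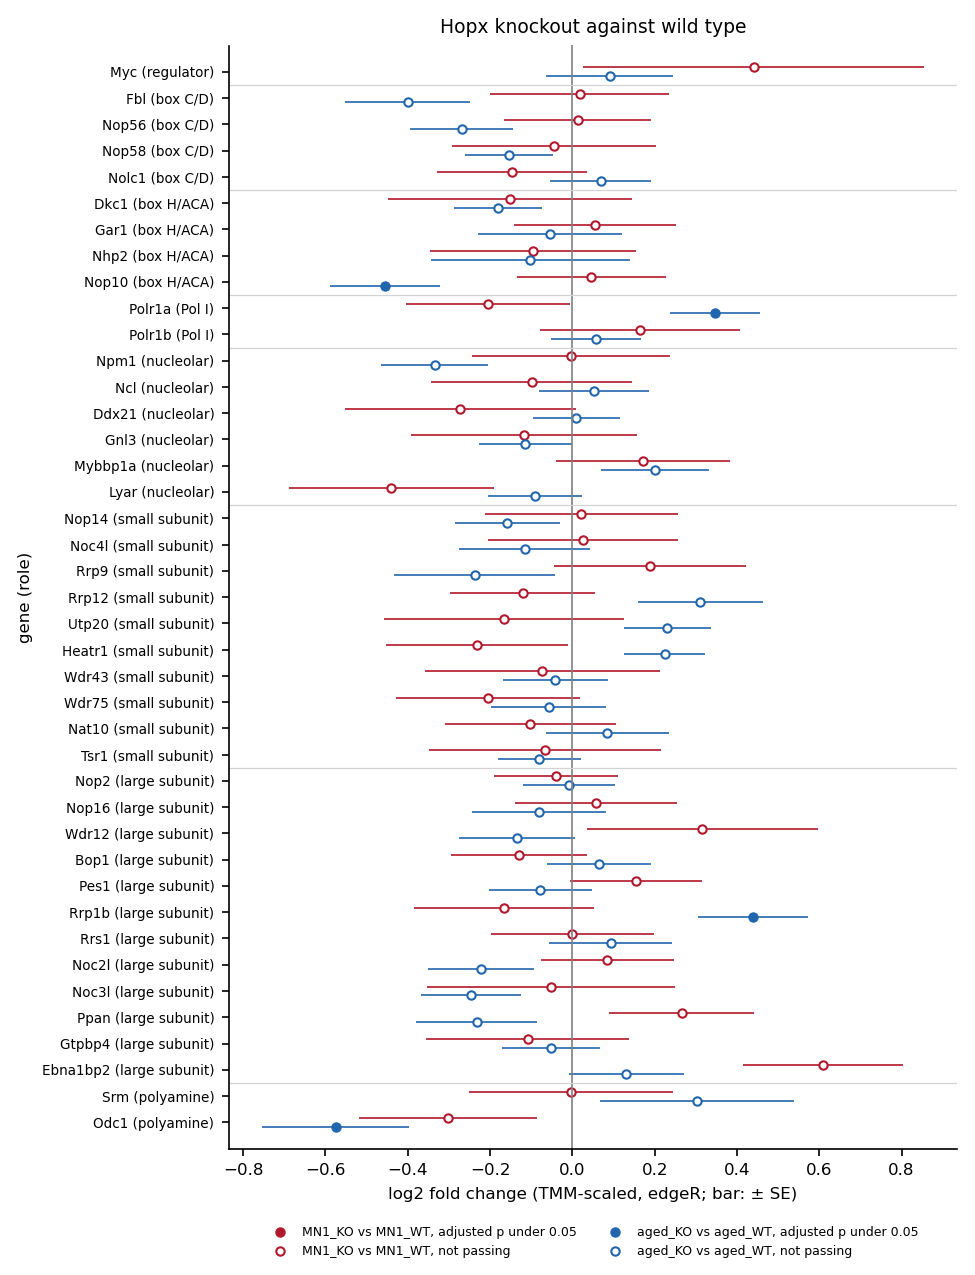
Log2 fold change (x axis, TMM-scaled, with SE) of each of the 41 genes (rows, by role) in MN1_KO against MN1_WT (red) and in aged_KO against aged_WT (blue); filled points have an edgeR adjusted p below 0.05. Filled points are Nop10, Polr1a, Rrp1b and Odc1 in aged marrow, and no red point is filled.

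With MN1, loss of Hopx gave no call. In MN1_KO relative to MN1_WT, 0 of the 41 genes passed edgeR's test, as did 0% of all 13525 genes tested. An unadjusted edgeR p below 0.05 was found for 1 of the 41, Ebna1bp2, a large-subunit assembly factor, and for 1353 of the 13525. Ebna1bp2 was at 126, 126 and 139 CPM in MN1_KO against 92.5, 90.2 and 71.7 CPM in MN1_WT, with a log2 fold change of 0.61 ± 0.19 (edgeR adjusted p = 0.363). It was the 1 gene whose groups did not overlap upwards, where 6.73% of all genes did so, and 0 did so downwards, where 8.33% of all genes did. DESeq2 also called 0 of the 41 genes, and so did edgeR without MN1_WT 2 and 4. The median log2 fold change was -0.04, against 0.03 over all genes.

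The knockout effect did not differ detectably between MN1 and aged marrow for any of the 41 genes (0 called by edgeR and 0 by DESeq2), where 1.41% of all genes had a called difference upwards and 1.92% downwards, 3.32% in all. An unadjusted edgeR p below 0.05 was found for 3098 of all 13937 genes tested and for 2 of the 41. These 2 were Polr1a, at -0.56 ± 0.23 (edgeR adjusted p = 0.182), and Rrp1b, at -0.61 ± 0.27 (0.206). Both had a positive knockout effect in aged marrow and a negative one, not passing the test, in MN1 marrow, at -0.21 ± 0.20 for Polr1a and -0.17 ± 0.22 for Rrp1b.

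Other genes of the same pathways were counted in 8 lists, also chosen with earlier results of these data known. In MN1_KO relative to aged_KO, called higher and lower were 12 and 0 of 39 further small-subunit factors, 12 and 0 of 44 large-subunit factors, 5 and 0 of 19 genes of the polymerase I machinery, and 3 and 0 of 10 snoRNP assembly factors. These shares, 30.8%, 27.3%, 26.3% and 30% higher, stand beside 21.1% of all genes. The genes with the smallest p were Nob1, the nuclease that makes the final cut of small-subunit rRNA (1.33 ± 0.29), Aatf (0.72 ± 0.17) and Wdr46 (0.55 ± 0.13), the helicase Ddx24 (0.66 ± 0.11), Nifk (0.79 ± 0.17) and Gnl2 (0.71 ± 0.18), the polymerase I subunits Cd3eap (0.84 ± 0.17) and Polr1e (0.65 ± 0.17) with Taf1a of its initiation factor (1.02 ± 0.29), and Ruvbl1 (0.76 ± 0.17), Znhit6 (0.92 ± 0.26) and Rpap3 (0.85 ± 0.30) of snoRNP assembly. Of 19 genes of nucleotide and one-carbon synthesis, 6 were called higher, among them Impdh2 (0.54 ± 0.12) and Shmt2 (0.78 ± 0.20), and 1 lower, Mthfd2 (-1.07 ± 0.28). Of 12 translation factors, 1 was called higher, the elongation factor Eef2 (0.55 ± 0.18). The calls of Eef2 and Rpap3 held in 5 of 11 alternatives each, that of Taf1a in 7 and that of Znhit6 in 8. The other genes named in this paragraph kept theirs in 9 or more.

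Of 15 partners and antagonists of Myc, 0 were called higher and 4 lower (26.7%) in MN1_KO relative to aged_KO, where 16.8% of all genes were called lower. Their fold changes were positive for 8 and negative for 7, with a median of 0.06, and 11 did not pass. Mxd1, which competes with Myc for Max and represses transcription, was at 113, 236 and 276 CPM in MN1_KO and 635, 348 and 625 CPM in MN1_WT, against 1217, 1213 and 967 CPM in aged_KO and 693, 564 and 551 CPM in aged_WT. Its order by group was thus lowest in MN1_KO and highest in aged_KO. Mxd1 fell in MN1_KO relative to aged_KO by 2.77 ± 0.40 on the log2 scale (edgeR adjusted p = 0.00161) and rose in aged_KO relative to aged_WT by 1.09 ± 0.16 (0.00180). The related antagonist Mxi1 fell by 0.98 ± 0.22 in MN1_KO relative to aged_KO and rose by 0.55 ± 0.10 in aged_KO relative to aged_WT (edgeR adjusted p = 0.00870 and 0.00396). Max, the shared partner, was at 108, 128 and 171 CPM in MN1_KO against 197, 237 and 190 CPM in aged_KO and fell by 0.96 ± 0.24 (edgeR adjusted p = 0.0137). Mycl, another Myc family gene, was at 1.70, 2.32 and 0.484 CPM in aged_KO against 6.24, 6.18 and 7.40 CPM in aged_WT. It fell by 1.88 ± 0.42 (edgeR adjusted p = 0.0107). In aged_KO relative to aged_WT, 3 of these 15 genes were called higher and 2 lower (20% and 13.3%). These shares are near those of all genes, 15.6% higher and 15.8% lower. Mxd1 is also abundant in maturing neutrophils, whose secondary granule genes moved in the same directions, and their part was not tested.

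Calls in aged_KO relative to aged_WT, where 15.6% of all genes were called higher and 15.8% lower, were 0 higher and 3 lower of 19 polymerase I genes, 0 and 3 of 39 small-subunit factors, 1 and 2 of 44 large-subunit factors, 0 and 0 of 10 snoRNP assembly factors, 0 and 1 of 19 nucleotide synthesis genes (Paics, -0.36 ± 0.10) and 0 and 1 of 12 translation factors (Eef1e1, -0.47 ± 0.14). The 3 of 19 polymerase I genes, 15.8%, match the share of all genes called lower. The polymerase I genes called were Polr1c (-0.65 ± 0.13), Polr2e (-0.47 ± 0.13) and Znrd1 (-0.53 ± 0.15), the small-subunit genes Imp3 (-0.60 ± 0.15), Rcl1 (-0.37 ± 0.12) and Emg1 (-0.38 ± 0.13), and the large-subunit genes Nsa2 (-0.49 ± 0.11), Brix1 (-0.44 ± 0.13) and, higher, Mdn1 (0.38 ± 0.13). All these values are log2 fold changes with edgeR adjusted p below 0.05. The calls held in 2 of 12 alternatives for Rcl1, 3 for Emg1, 5 for Mdn1 and 6 each for Brix1, Paics and Eef1e1. They held in 7 each for Imp3 and Znrd1, 9 for Polr2e, 11 for Nsa2 and 12 for Polr1c. In MN1_WT relative to aged_WT the calls among 19 polymerase I genes were Cd3eap (0.78 ± 0.17) higher and Polr2k (-0.79 ± 0.19) lower. Among 39 small-subunit factors Cirh1a (0.64 ± 0.15) was called higher, and the other 6 lists had 0. Over all genes, 1% were called higher and 2.58% lower. Of 12 alternatives, 8 kept the call of Cd3eap, 6 that of Cirh1a and 2 that of Polr2k. With MN1_WT 3 as the only MN1_WT library, Cd3eap (0.82 ± 0.22) and Cirh1a (0.63 ± 0.18) remained called and Polr2k (-0.92 ± 0.30) did not pass (edgeR adjusted p = 0.0328, 0.0459 and 0.0606).

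Around Odc1, 4 of the 8 other polyamine genes did not pass in aged_KO relative to aged_WT, 2 rose and 2 fell (25% each way, where 15.6% and 15.8% of all genes did). Among those called were spermine synthase Sms (-0.48 ± 0.11), Azin1, an inhibitor of the antizymes that degrade ornithine decarboxylase (0.48 ± 0.11), and the antizyme Oaz2 (0.46 ± 0.11). Of the same 8 in MN1_KO relative to aged_KO, 4 did not pass, 1 rose and 3 fell (12.5% and 37.5%, where 21.1% and 16.8% of all genes did). Those that fell were Azin1 (-1.06 ± 0.20), the polyamine acetyltransferase Sat1 (-1.56 ± 0.40) and Oaz2 (-0.48 ± 0.14). Oaz2 was at 79.9, 78.3 and 90.5 CPM in MN1_KO against 85.3, 93.8 and 90.9 CPM in aged_KO, so the groups overlapped, and its call held in 6 of 11 alternatives, with -0.12 on library totals alone (edgeR adjusted p = 0.428). The Oaz2 call was also lost without aged_KO 9 or 10 or MN1_KO 5 or 7.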

How the data were processed

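Bone marrow RNA of 12 libraries in 4 groups of 3 was sequenced from stranded mRNA libraries. The authors deposited expected counts, TPM and FPKM per gene symbol, per the file headers; per the submitters' processing notes the tools were RSEM 1.2.28 and Bowtie2 2.3.4.3 and the build mm10. The gene annotation and any use of strand in counting are not given in the sources used here. The deposited TPM values served only to order levels between genes, and the deposited FPKM values were not used. Expected counts were rounded to whole numbers, kept where filterByExpr passed the gene, and TMM factors were applied; the robust quasi-likelihood F test of edgeR 4.0.16 (R 4.3.3) was used, with Benjamini-Hochberg adjustment over all genes tested and a threshold of 0.05. CPM is the expected count scaled to the library total, without TMM. Each comparison of knockout with wild type was fitted on the 6 libraries of its table. The comparisons of MN1 with aged marrow, and the difference of the knockout effects, were contrasts of 1 fit of all 12 libraries. SE is the absolute log2 fold change over the square root of F. The script was tested on simulated data. No 2 libraries were identical. Depth was 16544407 to 28409046 counts per library.

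The members, roles, marker and pathway lists were chosen with earlier results of these data known. Values per library are given for Myc, for the 2 genes of each role with the smallest p in aged_KO against aged_WT and the 2 in MN1_KO against aged_KO (all, in roles of under 4), and for members called in a comparison with 6 or fewer calls; from each pathway list, up to 3 called genes with the smallest p. Alternatives were DESeq2 1.42.0 (its size factors, and its Wald test), library totals alone, no filter, a mean CPM of at least 5, 1 fit of all 12 libraries, each library left out in turn, and MN1_WT without libraries 2 and 4.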

Additional observations from a re-analysis of the deposited data

Results flagged for a closer look

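For 0 of the 41 genes did the difference of the knockout effects between MN1 and aged marrow pass the edgeR or the DESeq2 test. Among the genes of the pathway lists, 4 did by the edgeR test of the difference itself (effect in MN1 minus effect in aged marrow, log2). They were 1 of 15 Myc partners and antagonists, 1 of 19 polymerase I genes, 1 of 44 large-subunit factors and 1 of 8 other polyamine genes. The other lists, of 39 small-subunit factors, 10 snoRNP assembly factors, 19 nucleotide synthesis genes and 12 translation factors, had 0. Over all 13937 genes tested, 3.32% were called. For Mxd1 the difference was -2.47 ± 0.54 (edgeR adjusted p = 0.0378; 0.00368 to 0.113 leaving out 1 library). For Polr1c, a subunit shared by polymerases I and III, it was 1.04 ± 0.24 (edgeR adjusted p = 0.0445; 0.0128 to 0.125); its levels were 37.4, 33.3 and 38.6 CPM in MN1_KO against 27.9, 33.5 and 21.2 CPM in MN1_WT, and 17.5, 19.3 and 22.8 CPM in aged_KO against 33.0, 35.3 and 38.0 CPM in aged_WT. For Nsa2, a large-subunit factor, it was 0.89 ± 0.20 (edgeR adjusted p = 0.0412; 0.00608 to 0.116), with 239, 202 and 171 CPM in MN1_KO against 143, 191 and 119 CPM in MN1_WT, and 111, 119 and 132 CPM in aged_KO against 195, 186 and 196 CPM in aged_WT. For Azin1 it was -1.15 ± 0.28 (edgeR adjusted p = 0.0489; 0.00152 to 0.138), with 150, 154 and 105 CPM in MN1_KO against 239, 161 and 222 CPM in MN1_WT, and 220, 217 and 215 CPM in aged_KO against 190, 177 and 163 CPM in aged_WT. In each of the 4 genes MN1_WT 3 was the MN1_WT library nearest to MN1_KO. With it as the only MN1_WT library, none of the 4 differences passed the edgeR test: -1.70 ± 0.57 for Mxd1 (adjusted p = 0.304), 0.87 ± 0.30 for Polr1c (0.311), 0.66 ± 0.23 for Nsa2 (0.334) and -0.66 ± 0.24 for Azin1 (0.353). Of 18 alternatives, the difference passed in 8 for Mxd1, in 6 each for Polr1c and Nsa2 and in 4 for Azin1.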

How the results depend on the processing

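No paired analysis was possible because the groups compared share fewer than 2 replicate numbers. The number of the 41 genes called in aged_KO relative to aged_WT was 4; it was 8 on library totals alone, 2 at a mean CPM of at least 5, 0 in the fit of all 12 libraries, and 0 to 9 leaving out 1 library. In MN1_WT relative to aged_WT it was 3, 12 with DESeq2's Wald test, and 0 to 3 leaving out 1 library. In MN1_KO relative to aged_KO it was 17, 32 on library totals alone, and 5 to 25 leaving out 1 library. Shares of all genes are not set beside these counts, which show only how far the members' calls moved. The log2 fold change of Myc in MN1_KO relative to aged_KO was 1.21, and 1.05 to 1.45 leaving out 1 library; in MN1_WT relative to aged_WT it was 0.88, and 1.499 without MN1_WT 2 and 4. Without those 2 libraries Myc reversed to -0.15 in MN1_KO relative to MN1_WT and to -0.32 for the difference of knockout effects. In aged_KO relative to aged_WT Myc reversed to -0.085 on library totals alone and lay between -0.092 and 0.23 leaving out 1 library, and Polr1b reversed to -0.12 on library totals alone. Polr1a in MN1_KO relative to aged_KO reversed to 0.063 on library totals alone. The cause of these changes was not tested. The count of called members in MN1_KO relative to MN1_WT and for the difference of knockout effects was 0 under all alternatives run.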

Other observations

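A pair of genes of the pathway lists varied widely within the MN1 groups; they were chosen after their values were seen. Mdn1, the large AAA ATPase of large-subunit assembly, was at 278, 251 and 52.8 CPM in MN1_KO and 103, 460 and 82.6 CPM in MN1_WT, against 88.2, 61.2 and 68.5 CPM in aged_KO and 53.9, 69.4 and 64.7 CPM in aged_WT. Nob1 was at 61.3, 69.0 and 41.03 CPM in MN1_KO and 28.7, 62.2 and 21.2 CPM in MN1_WT, against 16.6, 15.3 and 20.2 CPM in aged_KO and 24.0, 22.5 and 26.6 CPM in aged_WT. In both genes the highest 3 libraries were MN1_KO 5, MN1_KO 7 and MN1_WT 3, which also held the highest 3 Mn1 and Myc values. Hoxa9, a homeobox gene of early progenitors, was at 146, 93.8 and 29.6 CPM in MN1_KO and 9.41, 143 and 2.08 CPM in MN1_WT. The summed CPM of the 40 members without Myc did not share that order. MN1_WT 2, with 0.395 CPM of Mn1, had a larger sum (5348 CPM) than MN1_KO 7 (4709 CPM), with 46.3 CPM of Mn1. This varied between single members. Polr1b, Nop14 and Noc3l were highest in MN1_KO 5, MN1_KO 7 and MN1_WT 3, while Nolc1 and Npm1 were not.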
